A study of Homo sapiens with 6 samples.

Results

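Krüppel-like factors (KLFs) were examined as 10 named transcripts, KLF2, KLF3, KLF4, KLF5, KLF6, KLF7, KLF9, KLF10, KLF11 and KLF13, among the 23686 genes counted in 6 RNA-seq libraries. All 10 were found in the files, and all 10 had enough reads to be tested. The libraries came from HEK293 cells, an established human embryonic kidney line, that carried green fluorescent protein (GFP). For 3 of them the GFP-positive cells had shared a culture for 10 h with ROS-producing HEK293 (+DAAO) cells, at 25 µM D-alanine. ROS are reactive oxygen species, and DAAO commonly stands for D-amino acid oxidase, an enzyme that makes hydrogen peroxide from D-amino acids. The other 3 libraries were controls made from GFP-positive cells. Cells of both groups were collected by fluorescence-activated sorting. The sampled cells themselves are labelled GFP+ and not as DAAO carriers. All 6 samples carry the same treatment text, with 10 h of co-culture and 25 µM D-alanine, and the controls are titled Wt controls. That text leaves unclear whether the controls received D-alanine or partner cells. The sources used here also do not say whether the samples of a group came from separate cultures. The p-values therefore measure the spread between these samples, which may be technical.

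KLFs are transcription factors that share a block of C2H2 zinc fingers at the C-terminus and bind CACCC-type and GC-rich DNA elements, which they share with the related SP proteins. Their N-terminal parts differ and recruit either coactivators or corepressors, so members of the family can raise or lower transcription of overlapping sets of genes. Several are immediate or early response genes whose transcripts change after growth factors, cytokines, hormones, mechanical force or stress.

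KLF6, KLF7 and KLF10 were higher in the co-culture libraries at an edgeR adjusted p under 0.05, by 1.50-fold, 1.67-fold and 1.73-fold. None of the 10 was lower at that threshold with edgeR, DESeq2 or limma-voom, and KLF3, the one with a negative log2 fold change, had an unadjusted p of 0.156. The 3 calls compare with a background in which 4.83% of the 14582 tested genes were called, 2.66% higher and 2.17% lower. The 10 members were chosen with earlier results of these data known, so this comparison is a description only. KLF2, KLF4 and KLF9 had higher values in every co-culture library than in any control, but their adjusted p-values lay at or just above 0.05. KLF3, KLF5, KLF11 and KLF13 had log2 fold changes between -0.09 and 0.17. The plot of CPM (read counts scaled to a common library total) by library shows all 10.

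**Figure D1:**
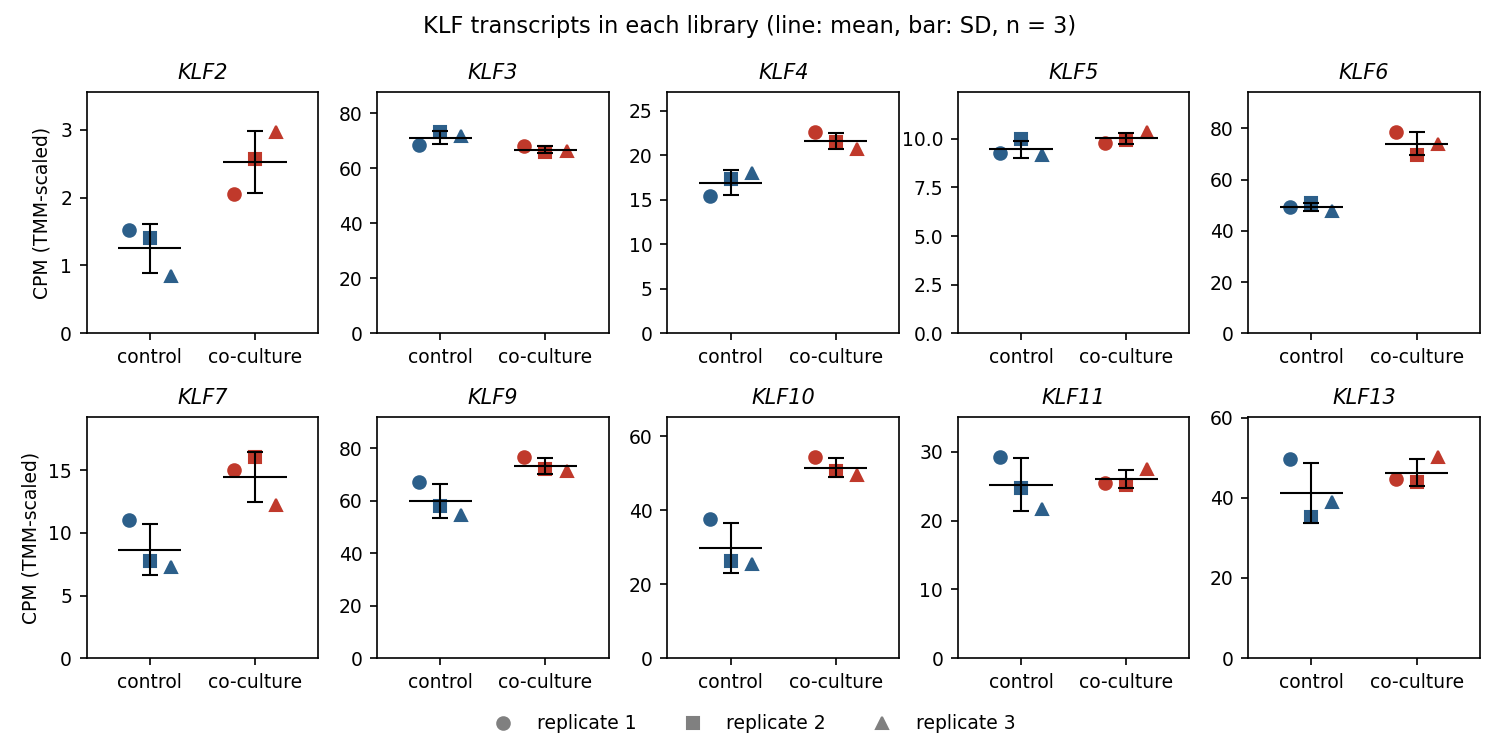
Expression of the 10 KLF transcripts in CPM scaled by trimmed means of M-values (vertical axes, each starting at 0) in the 3 control and 3 co-culture libraries; symbols mark replicate numbers, lines the mean and bars the SD. The co-culture points of KLF2, KLF4, KLF6, KLF7, KLF9 and KLF10 lie above all control points, those of KLF3 lie below, and KLF5, KLF11 and KLF13 overlap.

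The libraries held between 19091085 and 36250314 gene-assigned reads, and 1 read was worth 0.0279 to 0.0522 CPM. The 8 HEK293 markers checked (PAX2, LHX1, WT1, NEFL, NEFM, INA, VIM and KRT18) were present in every library, from 5.80 CPM (PAX2) to 1318 CPM (VIM). Of the 12 blood, endothelial and fibroblast markers, COL1A1, LUM and PDGFRA had 3.85 to 44.4 CPM, and the other 9 had at most 0.587 CPM, with CD3E and HBB at 0. The summed level of the 4 fibroblast markers was 50.7 to 55.5 CPM in co-culture and 46.6 to 55.0 CPM in the controls. Within that sum the genes differed in direction. LUM stood at 5.90 to 7.65 CPM in co-culture and 9.35 to 11.6 CPM in the controls. Mean COL1A1 was 41.6 CPM in co-culture against 34.3 CPM, PDGFRA 4.65 against 4.97 and DCN 0.0585 against 0.213. The summed level of the 8 HEK293 markers was 1789 to 1886 CPM in co-culture against 1416 to 1469 CPM in the controls. VIM, which encodes an intermediate filament protein, gave most of the HEK293 sum and rose (log2 fold change 0.40, edgeR adjusted p 0.00793). The part of these levels in the KLF results was not tested. DAO, the human D-amino acid oxidase gene, had 0 reads in all libraries, which allows 0.0838 to 0.157 CPM by library (3 reads, counting error only). A transgene of another sequence would not be counted there. Over well-covered genes, forward-strand reads, which a stranded kit should not give, had a median share of 0.124% and 0.211% in co-culture libraries 2 and 3 and 1.57% to 1.75% in co-culture library 1 and the 3 controls, so the libraries with few such reads were all co-culture ones. A second fit that includes this class as a batch term, and so compares co-culture library 1 with the controls, is given beside each called member. It called 29 of 14582 genes (0.199%).

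The promoter sequences of KLF6 and KLF7, called members with a RefSeq promoter entry, and of KLF11, a member whose libraries overlapped, are shown to let their KLF/SP-type boxes be compared. Each is the 250 bases before the RefSeq start (GRCh38.p14), 5′ to 3′ on the gene's strand, and capitals mark CACCC or GGGCGG on either strand. The windows are KLF6 at chr10:3785210-3785459 (minus strand), the first-listed of 4 for KLF7 at chr2:207165949-207166198 (minus strand) and the first-listed of 2 for KLF11 at chr2:10043579-10043828 (plus strand).
KLF6: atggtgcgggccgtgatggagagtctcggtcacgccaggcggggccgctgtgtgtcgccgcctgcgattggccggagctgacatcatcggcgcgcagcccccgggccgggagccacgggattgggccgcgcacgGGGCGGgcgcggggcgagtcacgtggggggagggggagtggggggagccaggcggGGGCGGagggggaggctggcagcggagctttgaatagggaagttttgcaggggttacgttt
KLF7: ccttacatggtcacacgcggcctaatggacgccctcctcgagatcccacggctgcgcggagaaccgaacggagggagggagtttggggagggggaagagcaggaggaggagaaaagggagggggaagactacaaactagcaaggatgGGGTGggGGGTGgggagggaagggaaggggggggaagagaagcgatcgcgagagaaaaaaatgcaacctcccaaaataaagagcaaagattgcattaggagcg
KLF11: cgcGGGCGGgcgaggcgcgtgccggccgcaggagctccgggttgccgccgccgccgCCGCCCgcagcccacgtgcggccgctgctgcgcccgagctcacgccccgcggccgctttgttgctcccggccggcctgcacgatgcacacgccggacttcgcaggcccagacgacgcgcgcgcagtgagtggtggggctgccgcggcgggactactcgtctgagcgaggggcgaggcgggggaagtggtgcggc

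The KLF6 window held 2 GGGCGG boxes, 116 to 111 and 61 to 56 bases before the start, and no CACCC. The KLF7 window held 2 CACCC boxes on the opposite strand, 103 to 99 and 96 to 92 bases before the start, and no GGGCGG. The KLF11 window held 2 GGGCGG boxes, 247 to 242 and 194 to 189 bases before the start. Windows that are not shown differed from these. The third-listed KLF7 window held 4 GGGCGG boxes, and the second-listed KLF11 window held 6 GGGCGG boxes and 1 CACCC. RefSeq promoter entries were found for 8 of the 10 members, all but KLF3 and KLF10, with 13 windows in all. GGGCGG lay in 8 of these 13 windows (7 of 8 members, all but KLF9) and in 42.6% of 35116 windows of the same length over all genes. CACCC lay in 6 of 13 windows (KLF5, KLF7, KLF11 and KLF13) against 54.7% of all windows. TGACGT, the core of the cAMP response element, lay in 2 of 13 windows (KLF11 and KLF13) against 7.10%, and a CArG box, the serum response factor motif, in 1 (the second-listed KLF7 window) against 1.16%. CCAAT lay in 6 of 13 windows against 32.0%, GGAAGT, an ETS-type motif, in 3 (KLF4, KLF6 and KLF11) against 19.5%, and AGAACA, a glucocorticoid receptor element half-site, in 2 (KLF5 and KLF7) against 12.4%. Both strands were searched. These are letter matches in short windows, not measured binding sites.

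KLF6, a widely expressed factor known as an injury-induced gene and a tumour suppressor, had the smallest p of the 10. It stood at 78.5, 69.7 and 74.0 CPM in co-culture libraries 1, 2 and 3 and at 49.5, 50.8 and 47.8 CPM in controls 1, 2 and 3. The lowest co-culture library was well above the highest control, and the controls differed little among themselves. The means were 74.1 ± 4.40 against 49.3 ± 1.48 CPM (SD, n = 3 each), and the log2 fold change was 0.59 with a 95% confidence interval of 0.44 to 0.73 (SE 0.07, edgeR adjusted p 0.00143). In the batch-term fit its log2 fold change was 0.67 (edgeR adjusted p 0.0356), and no other member was called there. KLF6 was called in all 14 other fits, with log2 fold changes from 0.55 to 0.67.

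KLF7, the closest relative of KLF6 and a factor known from the development of neurons, stood at 15.1, 16.1 and 12.2 CPM in co-culture libraries 1, 2 and 3. Its controls 1, 2 and 3 stood at 11.0, 7.72 and 7.25 CPM. The groups did not overlap, but co-culture library 3 and control 1 lay near each other. The log2 fold change was 0.74 (SE 0.17, 95% confidence interval 0.37 to 1.11, edgeR adjusted p 0.0345). With the batch term it was 0.80 (edgeR adjusted p 0.267). Among the fits without a library KLF7 was called only without control 1 (0.94, edgeR adjusted p 8.60e-05), and without each of the other 5 it had log2 fold changes from 0.61 to 0.85 and adjusted p-values from 0.0522 to 0.183.

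KLF10 (TIEG1) and KLF11 (TIEG2) are the TGF-beta-inducible early gene pair, repressors that bind the SIN3A corepressor. KLF10 stood at 54.4, 50.6 and 49.6 CPM in co-culture libraries 1, 2 and 3 and at 37.7, 26.2 and 25.5 CPM in controls 1, 2 and 3. All co-culture libraries were above all controls, and control 1 lay between the other controls and the co-culture libraries. The log2 fold change was 0.79 (SE 0.13, 95% confidence interval 0.49 to 1.09, edgeR adjusted p 0.0148). With the batch term KLF10 had 0.87 (edgeR adjusted p 0.164), and leaving out co-culture library 1 (0.76, adjusted p 0.0840), co-culture library 2 (0.81, 0.0781) or control 2 (0.71, 0.0787) ended its call as well. Without control 1 its log2 fold change was 0.99 (edgeR adjusted p 6.21e-08).

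KLF11 stood at 25.4, 25.1 and 27.5 CPM in co-culture and at 29.3, 24.7 and 21.6 CPM in controls 1, 2 and 3. Its co-culture libraries all lay inside the range of the controls. The log2 fold change was 0.05 (95% confidence interval -0.18 to 0.28, edgeR adjusted p 0.809), and it was -0.05 without control 3. The ratio of KLF10 to KLF11 reads within a library, which does not depend on scaling between libraries, was 2.14, 2.01 and 1.81 in co-culture libraries 1, 2 and 3 and 1.29, 1.06 and 1.18 in the controls. The ratio was higher in every co-culture library, by 0.76 on the log2 scale, with an exact two-sided permutation p of 0.1, the smallest that 3 against 3 samples can give. This was 1 of 4 paralogue ratios, chosen after the values were seen, and adjusted over the 4 its p was 0.4.

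The KLF6 to KLF7 read ratio was 5.21, 4.34 and 6.05 in co-culture and 4.49, 6.57 and 6.59 in the controls. These overlapped, with a log2 difference of -0.17 (exact permutation p 0.5). A permutation p of 3 against 3 samples cannot fall below 0.1, so it cannot show that a ratio was unaltered. The same limit holds for the KLF2 to KLF4 and KLF9 to KLF13 ratios below.

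KLF2 and KLF4 are known as targets of the ERK5 and MEF2 pathway, which fluid shear activates in endothelium, and KLF4 is also one of the reprogramming factors used to make pluripotent stem cells. KLF2 was the scarcest member, with 41, 54 and 106 reads in co-culture libraries 1, 2 and 3 and 30, 27 and 22 in the controls. This came to 2.05, 2.57 and 2.96 CPM against 1.52, 1.41 and 0.844 CPM, with no overlap. Its log2 fold change of 1.05 was the highest of the 10 members and had the widest interval (SE 0.27, 95% confidence interval 0.46 to 1.64), and its edgeR adjusted p fell just above the threshold (unadjusted p 0.00242).

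KLF4 stood at 22.6, 21.5 and 20.7 CPM in co-culture and at 15.4, 17.4 and 18.0 CPM in controls 1, 2 and 3. The groups did not overlap, and the log2 fold change was 0.35 (SE 0.09, 95% confidence interval 0.15 to 0.54) with an edgeR adjusted p of 0.0502. The calls of KLF2 and KLF4 turned on the fit. Without control 1 both were called (1.24 and 0.28, edgeR adjusted p 0.00340 and 0.0228), and KLF4 was also called without control 3 (0.40, 0.0419). DESeq2 called both (adjusted p 0.0401 and 0.0391), as did edgeR without a filter on low counts (0.0285 and 0.0397), and limma-voom called neither (0.0517 and 0.0594). With the batch term KLF2 had 0.73 and KLF4 0.41 (edgeR adjusted p 0.478 and 0.280). The KLF2 to KLF4 read ratio was 0.0909, 0.119 and 0.143 in co-culture and 0.0987, 0.0811 and 0.0469 in the controls, and these overlapped (log2 difference 0.68, exact permutation p 0.2).

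KLF9 and KLF13 belong to the basic transcription element-binding group, and KLF9 is a known target of the glucocorticoid and thyroid hormone receptors. KLF9 stood at 76.7, 72.0 and 71.2 CPM in co-culture and at 67.1, 57.9 and 54.6 CPM in controls 1, 2 and 3. The groups did not overlap, and control 1 was again the highest control. The log2 fold change was 0.29 (SE 0.08, 95% confidence interval 0.12 to 0.47, edgeR adjusted p 0.0609). KLF9 was called in 3 of the 14 other fits. These were DESeq2 (adjusted p 0.0269), edgeR without a filter on low counts (0.0349) and edgeR without control 1 (0.38, adjusted p 0.000327). They called 7.28%, 4.50% and 20.8% of all tested genes. It was not called by limma-voom (adjusted p 0.0615), and with the batch term its log2 fold change was 0.36.

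KLF13, known from T cells as an activator of the chemokine gene CCL5, stood at 44.8, 43.9 and 50.2 CPM in co-culture and at 49.7, 35.1 and 38.9 CPM in controls 1, 2 and 3. Control 1 lay among the co-culture libraries, and the log2 fold change was 0.17 (95% confidence interval -0.09 to 0.43, edgeR adjusted p 0.416). Without control 1 it was 0.32 (edgeR adjusted p 0.00571). The KLF9 to KLF13 read ratio overlapped between the groups, at 1.42 to 1.71 in co-culture and 1.35 to 1.65 in the controls (log2 difference 0.12, exact permutation p 0.3).

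KLF3 is a repressor that recruits CtBP, and it was the member with a negative log2 fold change. It stood at 68.2, 65.8 and 66.2 CPM in co-culture and at 68.4, 73.1 and 71.7 CPM in controls 1, 2 and 3. The groups did not overlap, but co-culture library 1 and control 1 were almost equal. The log2 fold change was -0.09 (95% confidence interval -0.22 to 0.04, edgeR adjusted p 0.391).

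KLF5, known for its part in proliferating epithelium, stood at 9.81, 9.93 and 10.3 CPM in co-culture and at 9.25, 9.96 and 9.17 CPM in the controls. These overlapped, with a log2 fold change of 0.09 (95% confidence interval -0.15 to 0.32, edgeR adjusted p 0.667). The intervals of KLF3, KLF5, KLF11 and KLF13 end below the log2 fold changes fitted for KLF6, KLF7 and KLF10, and do not show that these 4 genes were unaltered. The interval of KLF13, -0.09 to 0.43, overlaps that of KLF7, 0.37 to 1.11. So this comparison does not show that the members differ from each other.

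**Figure D2:**
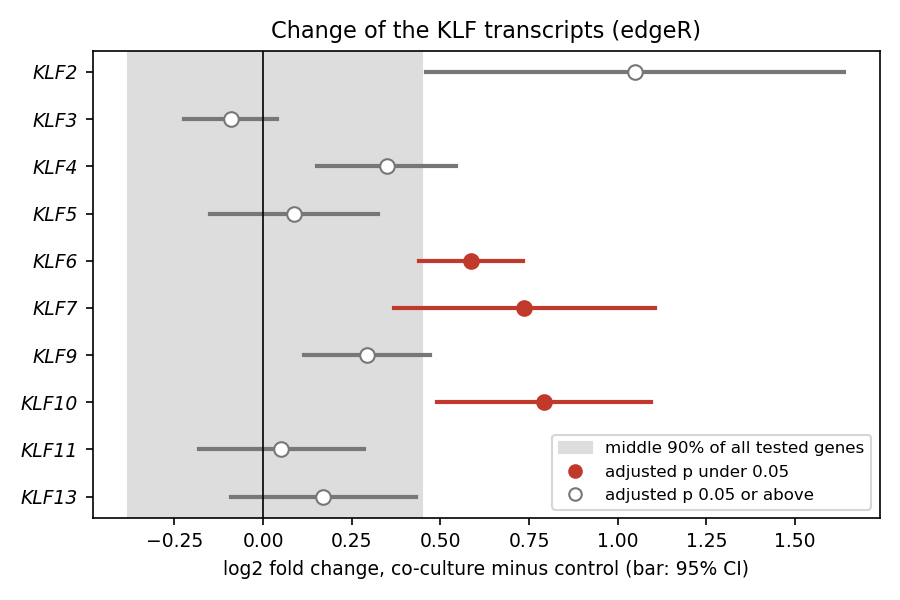
Log2 fold change of each KLF transcript, co-culture minus control (horizontal axis), with its 95% confidence interval from edgeR (n = 3 libraries per group); filled points have an adjusted p under 0.05 and the grey band spans the middle 90% of all tested genes, from -0.38 to 0.45. KLF6, KLF7, KLF10 and KLF2 lie to the right of the band, and KLF2 is not called.

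The 10 members were chosen with earlier results of these data known, so the group counts here describe the list and do not test it. As a group, 9 of the 10 members had a log2 fold change above 0 and the median was 0.32, against 7229 of 14582 genes above 0 and a median of 0.00 over all tested genes. An unadjusted p under 0.05 was found for 6 of 10 members and for 23.2% of all genes. The libraries of the groups did not overlap for 7 of 10 members, 6 with co-culture above and 1 below. The same held for 29.3% of all tested genes, 14.3% with co-culture above and 15.0% below. The reads of the 10 members summed to 377 to 397 CPM in the co-culture libraries and 295 to 339 CPM in the controls. In bulk samples such as these, a change in the share of cells expressing a gene and a change in RNA per cell cannot be told apart.

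Control 1 was the highest control for 6 of the 10 members (KLF2, KLF7, KLF9, KLF10, KLF11 and KLF13), control 2 for 3 and control 3 for 1. This was not counted over all tested genes, so it is not shown to be particular to the members. The number of members called was 7 without control 1 (KLF2, KLF4, KLF6, KLF7, KLF9, KLF10 and KLF13), in a fit that called 20.8% of all tested genes. It was 1 (KLF6) without co-culture library 1, without co-culture library 2 or without control 2, where 0.831%, 0.503% and 0.440% of all genes were called. The spread within the groups differed between members: the coefficient of variation over the controls was 3.01% for KLF6 and 3.40% for KLF3, and 23.0%, 23.7% and 28.7% for KLF10, KLF7 and KLF2. In co-culture it was 5.94%, 1.92%, 4.87%, 13.7% and 18.1% for the same 5 genes in that order. The chart of all fits shows which members were called in which.

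**Figure D3:**
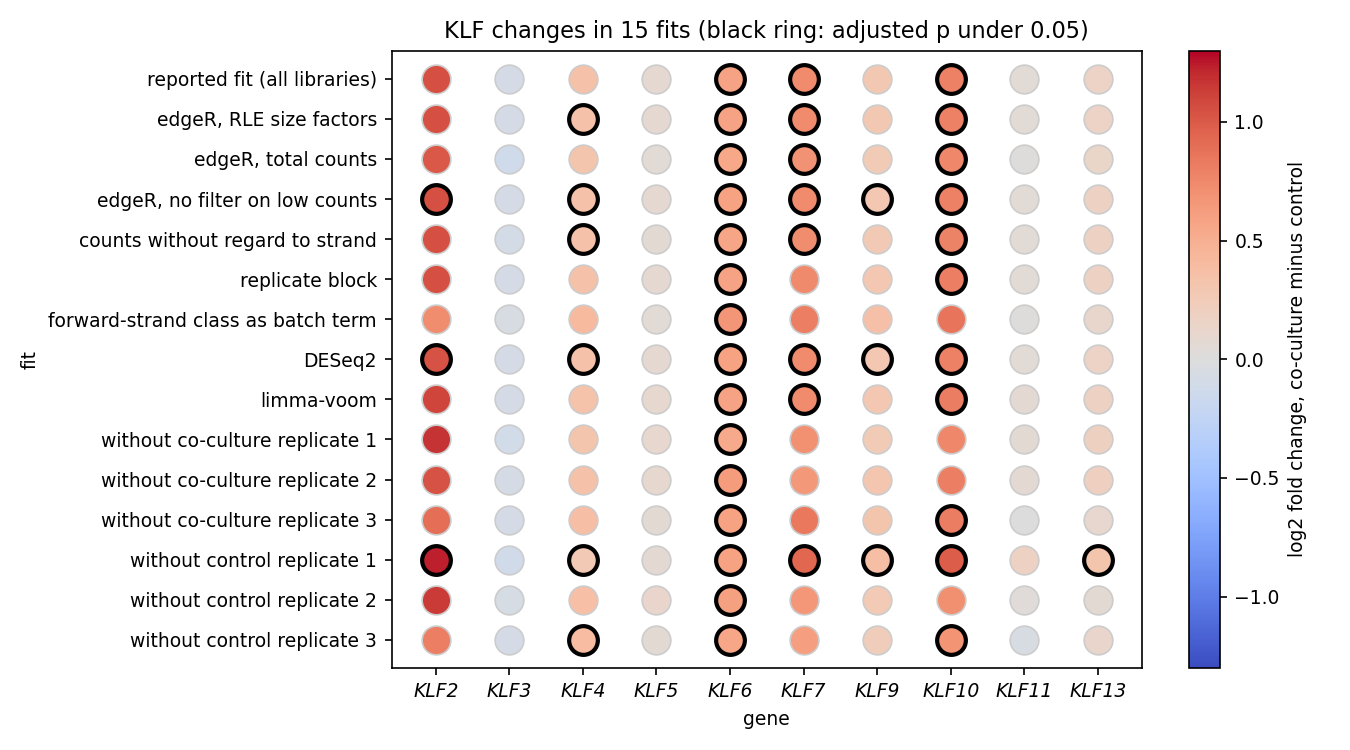
Log2 fold change of each KLF transcript (columns; colour scale from blue, lower, to red, higher in co-culture) in the reported fit and 14 other fits (rows), with a black ring where the adjusted p was under 0.05. KLF6 is ringed in every row, KLF10 in 11 of the 15 and KLF7 in 8, while KLF3, KLF5 and KLF11 are ringed in none.

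Levels of different genes were compared per kilobase of the longest GENCODE release 29 transcript, which may not be the isoform used in these cells. In the controls the order was KLF3 (13.9 ± 0.473 CPM per kb, SD, n = 3), KLF9 (11.6 ± 1.25), KLF6 (10.6 ± 0.316), KLF10 (8.14 ± 1.87), KLF11 (6.25 ± 0.951), KLF13 (6.04 ± 1.11), KLF4 (6.01 ± 0.488), KLF5 (2.65 ± 0.123), KLF7 (1.04 ± 0.246) and KLF2 (0.623 ± 0.179). The ranges of neighbours overlapped from KLF9 through KLF4. KLF3 lay apart at the top, and KLF5, KLF7 and KLF2 lay apart at the bottom. In co-culture KLF6 was the highest, at 15.9 ± 0.945 CPM per kb, followed by KLF9 (14.2 ± 0.569), KLF10 (14.1 ± 0.682) and KLF3 (13.0 ± 0.246). KLF9 and KLF10 overlapped there. KLF3 held rank 1 in every control library and rank 4 in every co-culture library, and KLF6 held rank 3 in every control and rank 1 in every co-culture library.

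**Figure D4:**
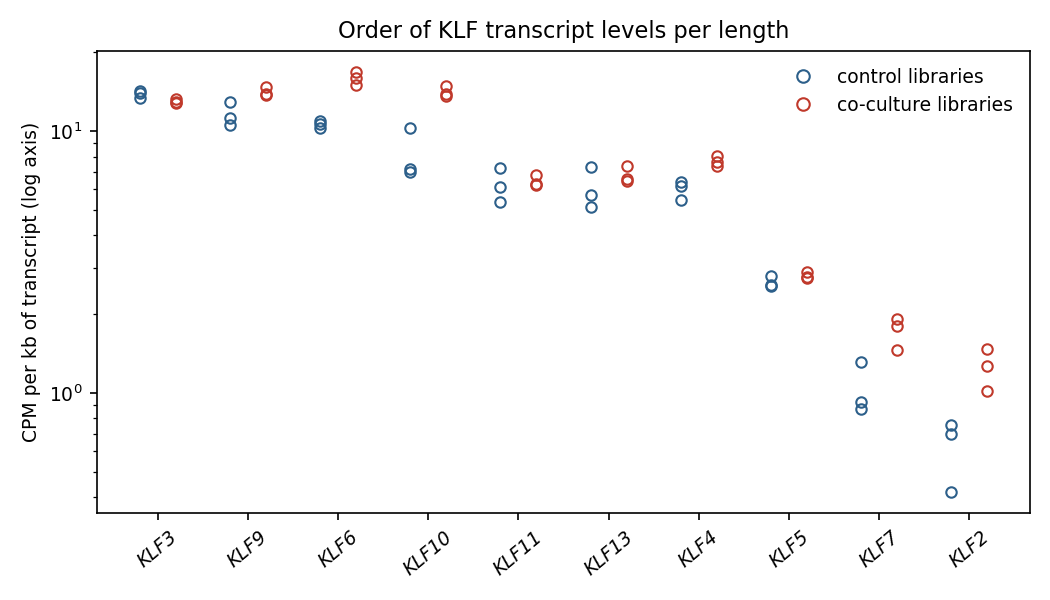
CPM per kb of the longest annotated transcript (vertical log axis) for the 10 KLF transcripts, ordered by their control mean; each circle is 1 library, blue for control and red for co-culture. KLF3 is highest in the controls at 13.9 CPM per kb and KLF6 in co-culture at 15.9 CPM per kb, and KLF2 is lowest in the means of both groups.

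Reads on the forward strand made up 0.365% (KLF13) to 2.42% (KLF9) of the reads over the members. With reads counted without regard to strand, KLF6, KLF7 and KLF10 were called, as was KLF4 (0.35, edgeR adjusted p 0.0489).

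The other KLF and SP genes were taken from a list of 17, of which 16 were in the files and 13 had enough reads. Of these 13, 0 were called in either direction by edgeR, DESeq2 or limma-voom. These fits called 4.83%, 7.28% and 4.43% of all tested genes, and 0 of 13 lies near such shares. An unadjusted edgeR p under 0.05 was found for 2 of the 13, against 23.2% of all tested genes. A log2 fold change above 0 was found for 4, and the median was -0.10. The smallest p was that of KLF15, a factor of gluconeogenesis and muscle metabolism, at 3.91 ± 0.261 CPM in co-culture against 5.29 ± 0.572 CPM in the controls (log2 fold change -0.44, edgeR adjusted p 0.128). Without control 1, edgeR called 2 of the 13 lower, KLF15 (-0.52, edgeR adjusted p 0.0208) and SP4. That fit called 20.8% of all tested genes.

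Among the genes through which KLF proteins act or are controlled, the cofactor list (SIN3A, SIN3B, the class I histone deacetylases, CtBP proteins, EP300, CREBBP and others) had 0 of 14 tested genes called by edgeR and 4 with an unadjusted p under 0.05, with a median log2 fold change of -0.06. DESeq2 called 1 of the 14, CREBBP (edgeR log2 fold change -0.28, adjusted p 0.0749), and limma-voom 0. CTBP1, the corepressor bound by KLF3, had the smallest p there, at 81.0 ± 2.70 against 93.5 ± 3.62 CPM (log2 fold change -0.21, edgeR adjusted p 0.0719). With total counts edgeR called 2 of the 14 lower, CREBBP and CTBP1 (-0.24, edgeR adjusted p 0.0427), and without control 1 it called 4 lower and 1 higher, CTBP1 among them (-0.17, edgeR adjusted p 0.0283). DESeq2, total counts and the fit without control 1 called 7.28%, 6.05% and 20.8% of all tested genes. The reported fit called 4.83% and limma-voom 4.43%, and 23.2% had an unadjusted edgeR p under 0.05. Of the ubiquitin ligases reported for KLF proteins, 0 of 8 were called by edgeR, DESeq2 or limma-voom and 1 had an unadjusted p under 0.05. That gene was SMURF2 (log2 fold change 0.17, edgeR adjusted p 0.170). Against 4.83% of all tested genes, 1 of 7 was called in the ERK5 and MEF2 arm upstream of KLF2 and KLF4. It was MAP3K2, a kinase at the top of that cascade, which rose from 131 ± 13.7 to 174 ± 13.1 CPM (SD, n = 3 each; log2 fold change 0.41, SE 0.08, edgeR adjusted p 0.0238). Leaving out co-culture library 1 (0.38) or 2 (0.39) or control 2 (0.43) ended its call, at edgeR adjusted p-values of 0.113, 0.139 and 0.108, and in the batch-term fit (0.49, 0.194). MAP2K5, MAPK7 (ERK5) and MEF2A, MEF2C and MEF2D had log2 fold changes from -0.08 to 0.03. A link between this arm and the KLF2 and KLF4 values was not tested.

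KLF10 is known as an early target of TGF-beta. A link between TGF-beta signalling and the KLF10 values was not tested. The list of 10 TGF-beta signalling genes and early targets had 3 called higher and 0 lower by edgeR, DESeq2 and limma-voom alike, with a median log2 fold change of 0.13. With edgeR, total counts added 1 call, SKI, lower, and leaving out control 1 gave 4 higher and 1 lower. The reported fit called 2.66% of all tested genes higher and 2.17% lower. DESeq2, limma-voom, total counts and the fit without control 1 called 7.28%, 4.43%, 6.05% and 20.8% in either direction. SKIL, a feedback inhibitor of SMAD proteins, stood at 127, 131 and 110 CPM in co-culture and at 56.4, 64.3 and 78.0 CPM in the controls (log2 fold change 0.89, SE 0.11, edgeR adjusted p 0.00435). TGFB1, the ligand, rose by 0.56 on the log2 scale (SE 0.10, edgeR adjusted p 0.0118). SMAD7, the inhibitory SMAD that KLF10 is known to repress, rose by 0.63 (SE 0.14, edgeR adjusted p 0.0402). With the batch term SKIL, TGFB1 and SMAD7 had 0.94, 0.43 and 0.64 (edgeR adjusted p 0.0903, 0.267 and 0.286), and none of the 3 was called. SKIL was called in each of the 6 fits that left out 1 library (0.78 to 1.02). Leaving out co-culture library 2 (0.55) or 3 (0.51) or control 2 (0.52) ended the call of TGFB1, and leaving out any of the 3 co-culture libraries (0.61 to 0.66) or control 2 (0.69) ended that of SMAD7. SMAD2, SMAD4, TGFBR1 and TGFBR2 had log2 fold changes from -0.05 to 0.07.

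KLF9 is a glucocorticoid receptor target. Among the receptor gene NR3C1 and 6 other targets, 0 of 7 were called in the reported edgeR fit or by limma-voom. These fits called 4.83% and 4.43% of all tested genes. An unadjusted edgeR p under 0.05 was found for 2 of the 7, against 23.2% of all tested genes. SGK1 was called by DESeq2 (adjusted p 0.0191) and also by edgeR with no filter on low counts (0.0282), without control 1 (0.0170) and without control 3 (0.0347). In that order, these fits called 7.28%, 4.5%, 20.8% and 5% of all tested genes. SGK1 had the smallest p, at 15.1 ± 1.47 against 10.6 ± 1.63 CPM (log2 fold change 0.50, edgeR adjusted p 0.0520). ZBTB16, the other gene with an unadjusted p under 0.05 and named after its values were seen, had 3.70 ± 0.403 CPM in co-culture against 4.88 ± 0.339 CPM in the controls (-0.41, edgeR adjusted p 0.162), the opposite direction, with every co-culture value below every control. The targets FKBP5, TSC22D3, PER1 and DUSP1 had log2 fold changes from -0.16 to 0.01. The median of this list was -0.07, and a link between these genes and the KLF9 values was not tested.

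Of 19 genes described as KLF targets in other cells, 17 were tested, edgeR called 1 higher and 1 lower, and the median log2 fold change was 0.04. DESeq2 and limma-voom each called 2 higher and 1 lower, and edgeR without control 1 called 5 higher and 1 lower. In that order, they called 7.28%, 4.43% and 20.8% of all tested genes, against 4.83% in the reported fit. The gene these fits added in common was ATF3, which encodes a stress-induced transcription factor. ATF3, named after its values were seen, had the highest log2 fold change of the list (0.58, edgeR adjusted p 0.0907), at 72.5, 71.5 and 75.5 CPM in co-culture libraries 1 to 3 against 64.9, 41.6 and 41.0 CPM in controls 1 to 3. Its groups did not overlap, and control 1 lay well above the other controls. ODC1, the first enzyme of polyamine synthesis, rose from 275 ± 22.7 to 337 ± 9.47 CPM (log2 fold change 0.29, edgeR adjusted p 0.0423). CDKN1B, the cyclin-dependent kinase inhibitor p27, fell from 92.0 ± 11.9 to 70.3 ± 5.32 CPM (log2 fold change -0.39, edgeR adjusted p 0.0434). Neither was called with the batch term (0.27 and -0.27, edgeR adjusted p 0.348 and 0.447). Leaving out any of the 3 co-culture libraries (0.27 to 0.31) or control 2 (0.33) ended the call of ODC1, and CDKN1B kept its call only without control 1 (-0.48, edgeR adjusted p 0.000186), with -0.45 to -0.29 without each other library.

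**Figure D5:**
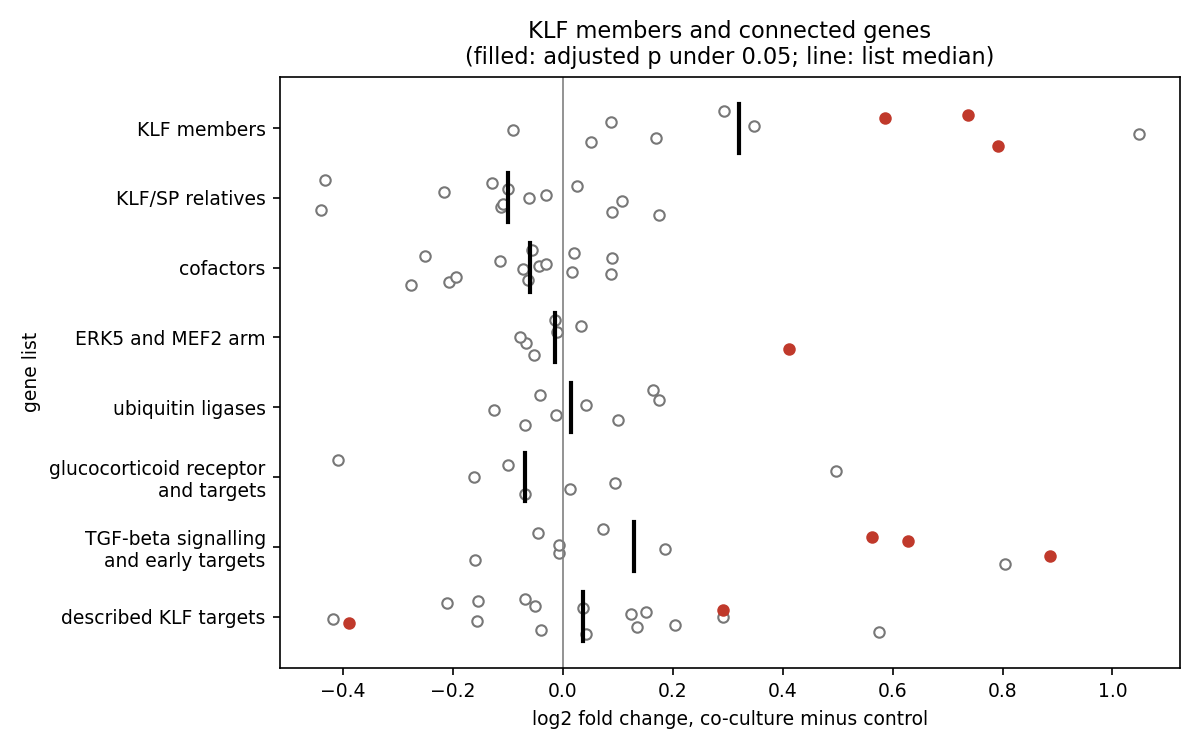
Log2 fold change, co-culture minus control (horizontal axis), of the 10 KLF members and of the tested genes of 7 connected lists (rows), with filled points at an edgeR adjusted p under 0.05 and a line at each list's median. The KLF median is 0.32, the TGF-beta list has 3 filled points, and the KLF/SP relatives have none and a median of -0.10. Over all tested genes 4.83% were called.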

How the data were processed

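Per the labels' protocols, RNA was extracted with TriPure and made into libraries with a stranded Illumina mRNA kit. The submitters' processing notes name FastQC, STAR version 2.53a and the build hg18; the annotation and read trimming are not given in the sources used here. The deposited files hold the authors' raw counts of reads per gene, 1 file per library, counted without regard to strand and on each strand. The reverse-strand counts were used. The 4 summary lines (24.2% to 28.5% of reads) were left out. STAR does not assign multimapping reads to genes, and these were 6.48% to 8.42% of reads, so reads of near-identical copies are undercounted.

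Libraries were scaled with TMM and tested over all genes with the quasi-likelihood test of edgeR 4.0.16 (R 4.3.3, group as the only term, robust fits, filterByExpr at a minimum count of 10, 14582 of 23686 genes kept), with Benjamini-Hochberg adjustment and a threshold of 0.05. Standard errors are the absolute log2 fold change over the square root of F. Alternatives were RLE factors, total counts, no filter, unstranded counts, DESeq2 1.42.0, limma-voom (limma 3.58.1), a replicate block, a batch term and leaving out each library. Named genes were the 10 members and, per connected list, up to 3 called genes by smallest p, or else the gene of smallest p. The members and lists were chosen with earlier results of these data known. Symbols were used as the files give them. RefSeq (GRCh38.p14) promoters and GENCODE release 29 lengths served for sequence and length only. Libraries of a group differed by more than sampling noise (chi-square per degree of freedom 4.73 to 18.6), so none was treated as a repeated deposit of another. The scripts were tested on simulated data.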

Additional observations from a re-analysis of the deposited data

How the results depend on the processing

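All 10 members kept the direction of their log2 fold change in the 14 other fits, except KLF11 (-0.05 without control 3). Of 140 values of members in these fits, 116 kept their side of the threshold, 11 lost it and 13 gained it. The number of members called was 6 without a filter on low counts and 6 with DESeq2, where 4.50% and 7.28% of all tested genes were called, against 3 in the reported fit (4.83%), and 1 with the forward-strand class as a batch term (0.199%). It ran from 1 to 7 when a library was left out. The number of all genes called, 704 in the reported fit, was 29 with the batch term and ran from 65 to 3069 when a library was left out. Genes called in the connected lists, which held 76 tested genes, numbered 6 in the reported fit and 0 with the batch term. They numbered from 1 to 20 when a library was left out. With the batch term 11 of the 76 list genes had an unadjusted p under 0.05, against 1824 of all 14582 tested genes. In the reported fit 4.83% of all tested genes were called, and 0.199% with the batch term. The list counts were not tested against these shares. Scaling by total counts called 310 genes higher and 572 lower, which is 35.1% higher against 55.1% in the reported fit, and moved the median gene to -0.04 on the log2 scale, with the same 3 members called. The replicate numbers carry no pairing in the labels, and deviations of same-numbered samples correlated at -0.09 to -0.04; with the replicate block 164 genes, 1 gene of the lists and 2 members (KLF6 and KLF10) were called, and KLF7 had an adjusted p of 0.0510. KLF2 had the fewest reads of the members, 22 to 106 per library.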
